A study of Saccharomyces cerevisiae with 14 samples.

Results

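The strain NFRI 3236, which the study describes as thermotolerant, and the laboratory strain S288C, its control strain, were compared. The comparison asked how their mRNA changed on a shift from 30°C to 39°C. The quantity reported for each gene is the heat response in NFRI 3236 (level at 39°C minus level at 30°C) minus the heat response in S288C, that is, the interaction of strain and temperature. The comparison used 10 of the 14 arrays of the series, with 2 arrays of NFRI 3236 and 3 of S288C at each temperature, and covered every *Saccharomyces cerevisiae* gene on the array that passed a filter on low signals, which was 5443 of 5449 genes. The other 4 arrays hold NFRI 3155, which the study describes as thermosensitive, and are given beside the results where stated.

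All strains were grown with shaking in YPD, a rich medium of yeast extract, peptone and glucose. The methods describe exponentially growing cells moved to pre-heated flasks in a water bath for 30 min, which is the 39°C treatment, and polyadenylated RNA was hybridised to Affymetrix yeast arrays, 1 array per sample. The labels give no genotype, mating type or ploidy for these strains, and each strain stands for itself only. The probes of this array were designed on the S288C genome, so a gene whose sequence differs in NFRI 3236 can give a lower signal there at both temperatures. How much of a strain difference at a single temperature comes from the probes was not tested.

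Yeast cells respond to heat along several known routes. The heat shock factor Hsf1 induces molecular chaperones, which bind, refold or disaggregate damaged proteins, and the transcription factors Msn2 and Msn4 induce a broad set of stress genes for antioxidant enzymes, trehalose and reserve carbohydrates. At the same time the genes for ribosomes and for growth are turned down. Purine nucleotides are built by the ADE enzymes with carbon units that come from serine and glycine through folate, and this pathway follows the supply of adenine. Genes for the use of poor nitrogen sources are held low by nitrogen catabolite repression, and the DAN and TIR cell wall mannoproteins are typical of cells short of oxygen.

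The level of a gene is its log2 signal minus the 75th percentile of its array, so that 0 is the level of the gene at that percentile. Differences were tested with limma across all 5443 genes, and a gene is called where the Benjamini-Hochberg adjusted p is under 0.05. Standard errors (SE) come from the same model. The 75th percentile of the signal lay between 95.7 and 438 over the 10 arrays. By group it was 95.7 to 135 for S288C at 30°C and 131 to 269 at 39°C. For NFRI 3236 it was 171 to 248 at 30°C and 309 to 438 at 39°C, the last above all other arrays. The scaling value thus moved with the groups and cannot be told apart from strain and temperature. Per array, 5144 to 5336 genes were above background, a limit set at percentile 95 of the array's probe sets for *Schizosaccharomyces pombe*, another yeast. The 3 S288C arrays at 30°C stood apart from the others in the added poly-A control transcripts, for which they had 0 to 1 of 12 probe sets above background. The remaining 7 arrays had 8 to 11. That difference is shared by all arrays of the group and cannot be told apart from it. For *WBP1*, a control gene with probes at both ends, the second NFRI 3236 array at 39°C had a 3′ over 5′ ratio of 10.9, against 1.41 to 5.86 on the other 9.

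The heat response differed between the strains for 551 of 5443 genes (10.1% of those tested). It was higher in NFRI 3236 for 234 genes (4.3%) and lower for 317 (5.82%), with a median difference among the called genes of 1.41 and -1.53 on the log2 scale, against -0.07 over all genes tested. The difference exceeded 1 on the log2 scale for 223 and 305 of them, and exceeded 2 for 27 and 87. Without the second NFRI 3236 array at 39°C, 277 genes were called, of which 95 were higher and 182 lower. Without the second NFRI 3236 array at 30°C, 231 were called, with 68 higher and 163 lower. Scaling between arrays set these counts: quantile normalization called 345 higher and 277 lower, and signals without the percentile shift called 23 and 38. At the edge of the threshold lay *STI1*, a cochaperone of Hsp70 and Hsp90, with an adjusted p of 0.05 and a difference of -1.25, and just outside it *LIP2*, a lipoyl ligase, with 0.0503 and 0.92.

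**Figure D1:**
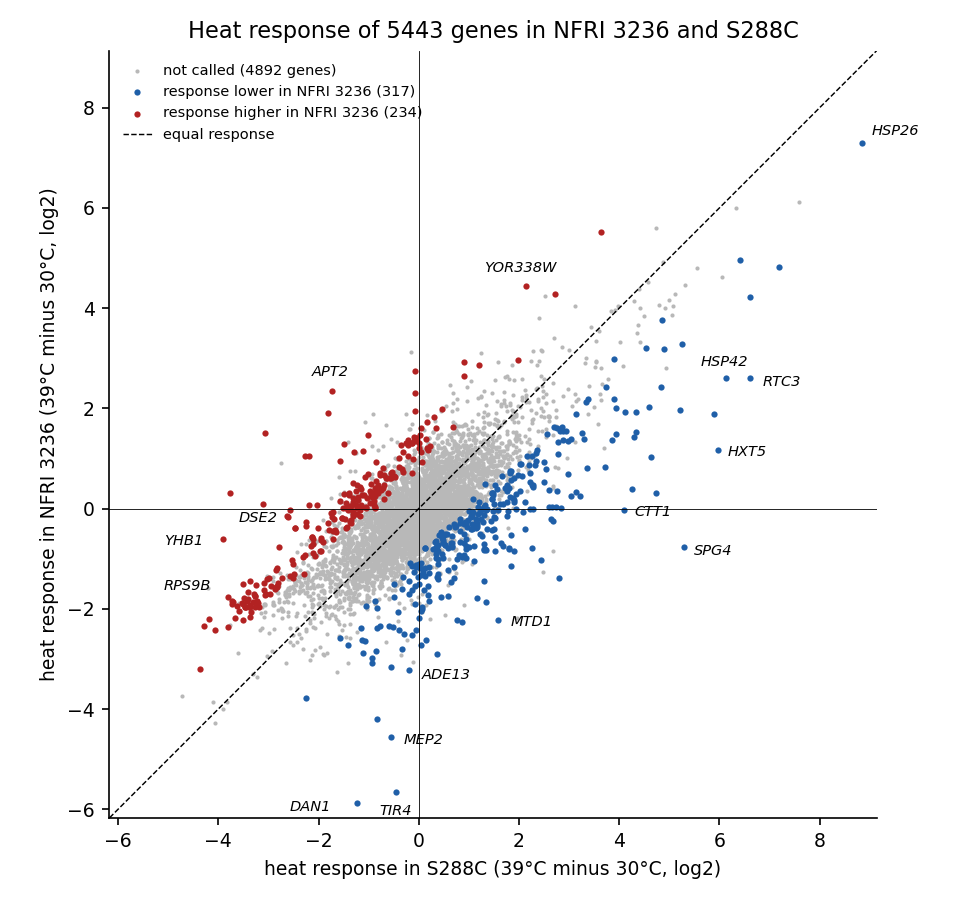
Heat response of 5443 genes in S288C (x axis) and NFRI 3236 (y axis), each as level at 39°C minus level at 30°C on the log2 scale, with 1 point per gene. The 234 genes with a higher response in NFRI 3236 lie above the dashed line of equal response and the 317 with a lower response lie below it, and grey points are the genes that were not called.

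The most frequent pattern among the called genes was a change in S288C alone. Within each strain, 39°C against 30°C, the test called 854 rises (15.7% of genes tested) and 1277 falls (23.5%) in NFRI 3236, and 1370 rises (25.2%) and 1535 falls (28.2%) in S288C, which is 39.2% and 53.4% of genes in either direction. In NFRI 3155, it called 42.2%. S288C has 3 arrays per group and NFRI 3236 has 2, which gives S288C the smaller error in these tests. Of the 551 genes, S288C passed its own test and NFRI 3236 did not for 238, both passed in the same direction for 156, NFRI 3236 passed alone for 109, and both passed in opposite directions for 45. For 3 genes neither strain passed, namely *PMI40* (mannose phosphate isomerase), *CTF4* (a replication factor) and *BNR1* (a formin), with differences of -0.94, -1.05 and -1.77.

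Taken by direction, the 317 genes with a lower response in NFRI 3236 were mostly genes that S288C raised. They held 135 that rose in S288C and were not called in NFRI 3236, 58 that rose in both with the larger rise in S288C, and 29 that rose in S288C and fell in NFRI 3236. A further 74 fell in NFRI 3236 and were not called in S288C, and 18 fell in both. Among the 234 with a higher response in NFRI 3236, 103 fell in S288C and were not called in NFRI 3236, and 71 fell in both with the larger fall in S288C. There were 35 genes that rose in NFRI 3236 and were not called in S288C, 16 that rose in NFRI 3236 and fell in S288C, and 9 that rose in both.

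**Figure D2:**
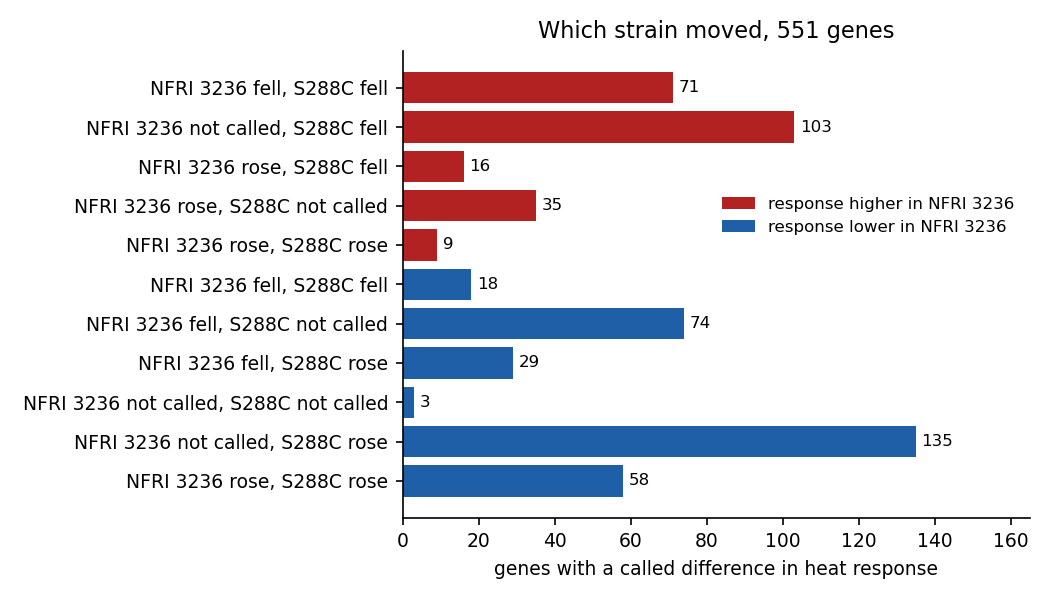
Number of the 551 called genes in each pattern of the within-strain tests (rose or fell at an adjusted p under 0.05, or not called), with bars from 0 and the count at the end of each bar. The longest bars are the 135 genes that rose in S288C and were not called in NFRI 3236, and the 103 that fell in S288C and were not called in NFRI 3236.

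Chaperone genes rose less in NFRI 3236 than in S288C. Of 29 Hsf1-dependent chaperone genes tested, 16 had a lower response in NFRI 3236 and 0 a higher one, and the median difference of the list was -1.25 (all genes -0.07). The median heat response of the list was 0.71 in NFRI 3236, 2.38 in S288C and 0.77 in NFRI 3155, on the log2 scale. At 30°C 12 of the 29 were called higher in NFRI 3236 and 2 lower, and at 39°C 0 were called higher and 12 lower. Of the 16 called genes, 10 rose in both strains and 6 rose in S288C and were not called in NFRI 3236. The number with a lower response ranged from 7, without the first NFRI 3236 array at 30°C, to 21, without the third S288C array at 39°C.

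*HSP42* (YDR171W), a small heat shock protein that collects misfolded proteins in aggregates, had the largest difference of the list. Its level was 0.33 and 0.65 on the NFRI 3236 arrays at 30°C and 2.96 and 3.23 at 39°C. In S288C it was -2.57, -3.08 and -2.0 at 30°C and 3.87, 3.59 and 3.25 at 39°C. All NFRI 3236 arrays at 30°C were above all S288C arrays at 30°C, and all at 39°C were below all S288C arrays at 39°C. S288C rose 69.6-fold, NFRI 3236 6.08-fold and NFRI 3155 6.33-fold, and the difference was -3.52 (SE 0.50, adjusted p 0.00102).

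*BTN2* (YGR142W), which sorts misfolded proteins, rose 20.1-fold in S288C against 2.90-fold in NFRI 3236 (difference -2.79, SE 0.41, adjusted p 0.00129). The strain order reversed between temperatures, since the gene stood at 0.19 and 0.70 in NFRI 3236 and at -1.37 to -1.22 in S288C at 30°C, and at 1.75 and 2.21 against 2.93 to 3.15 at 39°C. *HSP78*, the mitochondrial disaggregase, rose 5.38-fold and 28.6-fold (difference -2.41, SE 0.26, adjusted p 0.000111), and *HSP104*, the cytosolic one, rose 4.0-fold and 15.3-fold (difference -1.94, SE 0.37, adjusted p 0.00738).

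*SSA1* (YAL005C), a main cytosolic Hsp70, is a gene that moved in S288C alone. Its level was 4.13 and 3.52 in NFRI 3236 at 30°C and 3.92 and 3.79 at 39°C. In S288C it was 1.94, 2.09 and 1.91 at 30°C and 5.18, 4.78 and 3.97 at 39°C. The NFRI 3236 arrays of the 2 temperatures overlapped. At 30°C they lay above all S288C arrays, and at 39°C they lay below all of them. The S288C rise was 6.33-fold and the difference was -2.63 (SE 0.42, adjusted p 0.00239). Probe sets of *SSA1* and its near-identical copy *SSA2* may share signal, and *SSA2* had a difference of -1.19 that was not called (adjusted p 0.644). *HSP60*, the mitochondrial chaperonin, and the J-domain cochaperone *YDJ1* showed the same pattern, with S288C rises of 2.78-fold and 2.47-fold.

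The most strongly induced chaperones rose steeply in both strains. *HSP26*, another small heat shock protein, rose 457-fold in S288C against 157-fold in NFRI 3236 (difference -1.54, SE 0.39, adjusted p 0.0271), and the inducible Hsp70 gene *SSA4* rose 31.3-fold and 84.8-fold (difference -1.44, SE 0.37, adjusted p 0.028). Other members were not called: *SSA3* had a difference of 0.06, *SSE2* of -0.07 and the Hsp90 gene *HSP82* of -0.92 (adjusted p 0.133). Rises in the 2 strains were 15.7-fold and 15.1-fold for *SSA3* and 22.9-fold and 24.0-fold for *SSE2*.

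**Figure D3:**
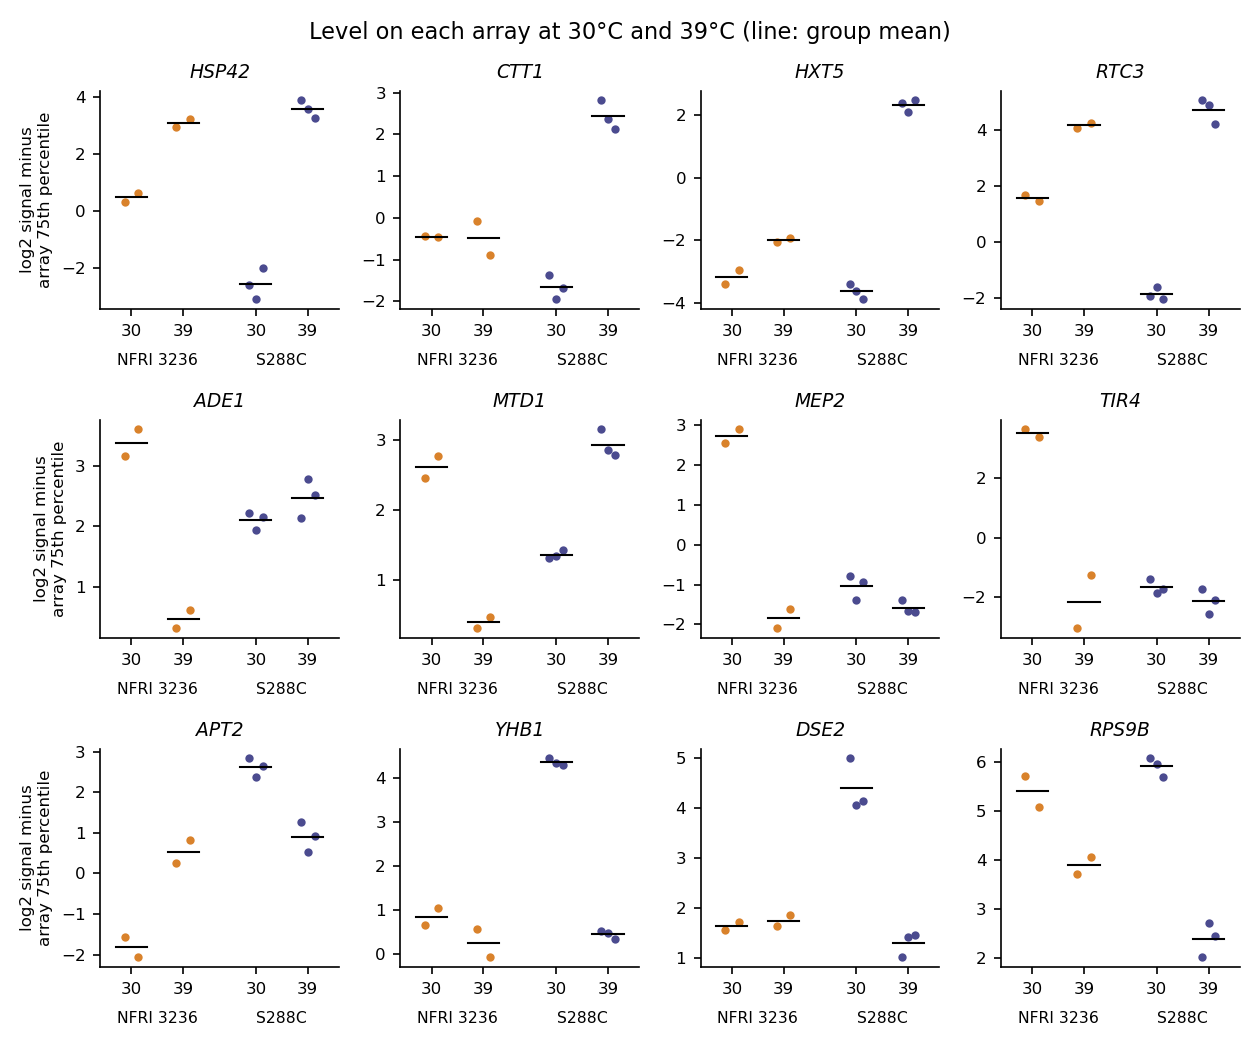
Level of 12 genes on each array (log2 signal minus the array's 75th percentile), at 30°C and 39°C in NFRI 3236 (2 arrays each) and S288C (3 arrays each), with a line at each group mean. *HSP42*, *CTT1*, *HXT5* and *RTC3* rose further in S288C, *ADE1*, *MTD1*, *MEP2* and *TIR4* fell in NFRI 3236, *APT2* rose in NFRI 3236 and fell in S288C, and the arrays of *YHB1*, *DSE2* and *RPS9B* show the larger fall in S288C.

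The general stress genes of Msn2 and Msn4 showed the same direction. Of 29 tested, 12 had a lower response in NFRI 3236 and 0 a higher one, and the list's median difference was -1.15. Nearly the whole list was heat-induced, with 25 members rising in NFRI 3236 and 28 in S288C, and the median heat response was 2.59, 3.90 and, in NFRI 3155, 3.78. Of the 12 called genes, 10 rose in both strains. *CTT1* and *SIP18* rose in S288C and were not called in NFRI 3236. The number with a lower response ranged from 7, without the second NFRI 3236 array at 39°C, to 15.

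*CTT1* (YGR088W) encodes the cytosolic catalase, which removes hydrogen peroxide. Its level was -0.44 and -0.47 in NFRI 3236 at 30°C and -0.07 and -0.90 at 39°C, and in S288C -1.36, -1.95 and -1.68 at 30°C and 2.81, 2.37 and 2.13 at 39°C. It rose 17.1-fold in S288C and was unresolved in NFRI 3236 (0.981-fold, adjusted p 0.958), a difference of -4.13 (SE 0.43, adjusted p 9.74e-05). In NFRI 3155 it rose 3.11-fold. The strains were ordered oppositely at the 2 temperatures, with a difference of NFRI 3236 minus S288C of 1.21 at 30°C and -2.92 at 39°C.

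*RTC3* (YHR087W) rose 97.6-fold in S288C against 6.13-fold in NFRI 3236. It stood at 1.68 and 1.46 in NFRI 3236 at 30°C against -1.94, -1.60 and -2.05 in S288C, while at 39°C the values were 4.10 and 4.28 against 5.08, 4.92 and 4.24, where the strains overlapped. The difference of -3.99 (SE 0.39, adjusted p 6.18e-05) thus lay at 30°C, at which NFRI 3236 was 3.44 higher. *FMP16* (YDR070C) had a difference of the same size, -4.01, but it lay at 39°C: levels at 30°C were -3.86 and -3.91 in NFRI 3236 and -4.19 to -3.25 in S288C, and at 39°C -2.32 and -1.67 against 2.26 to 2.44. S288C rose 59.6-fold and NFRI 3155 53.8-fold, against 3.69-fold in NFRI 3236.

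*HXT5* (YHR096C), a hexose transporter of slow-growing and stressed cells, was also low in NFRI 3236 at 39°C. It stood at -3.41 and -2.97 in NFRI 3236 at 30°C and -2.08 and -1.95 at 39°C, and in S288C at -3.40, -3.63 and -3.89 and then at 2.40, 2.09 and 2.47. S288C rose 62.3-fold, NFRI 3155 11-fold and NFRI 3236 2.26-fold, with a difference of -4.79 (SE 0.33, adjusted p 4.57e-06). *SPG4*, named for growth in stationary phase, was below background on all 4 NFRI 3236 arrays and on the S288C arrays at 30°C and rose at least 21.6-fold in S288C, and its fitted difference of -6.05 is no bound.

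Trehalose and glycogen genes and antioxidant genes had smaller shares of calls. Of 21 trehalose and glycogen genes, 5 had a lower response in NFRI 3236 and 0 a higher one (median difference -0.58), and 1 was left without the second NFRI 3236 array at 39°C. *PGM2*, a phosphoglucomutase, rose 9.75-fold and 38.1-fold, and *TPS1*, trehalose phosphate synthase, rose 3.04-fold and 6.74-fold. Of 33 redox defence genes, 5 were lower and 1 was higher, the last being *OYE3*. The peroxiredoxin gene *TSA2* rose 15.2-fold in S288C against 2.82-fold in NFRI 3236 (difference -2.43, SE 0.30, adjusted p 0.000414).

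Purine synthesis genes fell in NFRI 3236 for 16 of the 19 tested, while in S288C 8 fell and 4 rose. Of the 19, 10 had a lower response in NFRI 3236 and 2 a higher one, with a median difference of -1.25. The list's median heat response was -2.14 in NFRI 3236, -0.39 in S288C and -1.68 in NFRI 3155. Of the 10, 5 fell in NFRI 3236 and were not called in S288C (*ADE1*, *ADE3*, *ADE8*, *ADE13* and *ADE17*), 3 fell in NFRI 3236 and rose in S288C (*ADE2*, *ADE4* and *MTD1*), and *ADE6* and *ADE12* fell in both. At 30°C 10 of the 19 genes were called higher in NFRI 3236 and at 39°C 7 were called lower. The count of lower responses ranged from 7 to 10 when single arrays were left out, and the higher responses went to 0 without the second NFRI 3236 array at 30°C.

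*ADE13* (YLR359W), adenylosuccinate lyase, fell 9.36-fold in NFRI 3236. Its level was 3.76 and 4.16 at 30°C and 0.98 and 0.49 at 39°C, whereas the S288C arrays held 2.76, 2.67 and 2.72 at 30°C and 2.71, 2.50 and 2.38 at 39°C. The S288C arrays of both temperatures lay between the NFRI 3236 arrays at 30°C and those at 39°C. The difference was -3.04 (SE 0.29, adjusted p 5.07e-05). *ADE1* (YAR015W), the enzyme just before it in the pathway, fell 7.52-fold from 3.16 and 3.60 to 0.32 and 0.62, while S288C held 1.94 to 2.22 at 30°C and 2.14 to 2.77 at 39°C (difference -3.28, SE 0.32, adjusted p 6.18e-05). Both fell in NFRI 3155 too, with heat responses of -2.71 for *ADE1* and -2.73 for *ADE13*.

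*MTD1*, *SHM2* and *SER33*, which act in the supply of carbon units through folate and serine, fell in NFRI 3236 and rose in S288C. *MTD1* (YKR080W), a methylenetetrahydrofolate dehydrogenase, stood at 2.46 and 2.77 in NFRI 3236 at 30°C and 0.31 and 0.47 at 39°C, and in S288C at 1.31, 1.34 and 1.42 and then 3.15, 2.86 and 2.79. It rose 2.98-fold in S288C and fell 4.67-fold in NFRI 3236, a difference of -3.80 (SE 0.27, adjusted p 5.61e-06). *SHM2*, the cytosolic serine hydroxymethyltransferase, fell 4.81-fold and rose 1.81-fold (difference -3.12, SE 0.44, adjusted p 0.00102). *SER33*, which starts serine synthesis, fell 3.35-fold and rose 1.49-fold (difference -2.32, SE 0.31, adjusted p 0.000821). *GCV1*, a subunit of the glycine cleavage system, rose 6.44-fold in S288C and had a value of 0.84-fold in NFRI 3236 that was not called (adjusted p 0.608).

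The purine genes with a higher response in NFRI 3236 act outside the ADE chain. *APT1*, adenine phosphoribosyltransferase of the salvage route, fell 2.86-fold in NFRI 3236 and 9.55-fold in S288C, and *IMD2*, IMP dehydrogenase of the guanine branch, fell 2.26-fold and 7.05-fold. Probe sets of *IMD2* and its close copies may share signal. *APT2* (YDR441C), a copy of *APT1* that was not on the list, had the largest opposite movement of any gene with a higher response. It stood at -1.57 and -2.07 in NFRI 3236 at 30°C and 0.24 and 0.82 at 39°C, and in S288C at 2.83, 2.38 and 2.64 and then at 1.26, 0.52 and 0.91. It rose 5.10-fold in NFRI 3236, fell 3.30-fold in S288C and rose 3.68-fold in NFRI 3155, with a difference of 4.07 (SE 0.38, adjusted p 5.07e-05).

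Of 29 genes under nitrogen catabolite repression, 6 had a lower response in NFRI 3236 and 0 a higher one, with a median difference of -0.25. Over the list, 13 genes fell in NFRI 3236 and 12 in S288C, and the called members included the permease genes *MEP2*, *GAP1* and *MEP1*. The ammonium permease gene *MEP2* (YNL142W) stood at 2.54 and 2.89 in NFRI 3236 at 30°C and -2.10 and -1.60 at 39°C. In S288C it was -0.78, -1.38 and -0.93 at 30°C and -1.39, -1.66 and -1.69 at 39°C. Only the NFRI 3236 arrays at 30°C stood away from the rest. *MEP2* fell 23.7-fold in NFRI 3236 and 1.47-fold in S288C, where it was not called (adjusted p 0.06), and the difference was -4.01 (SE 0.37, adjusted p 4.89e-05).

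*GAP1* (YKR039W), the general amino acid permease, fell 18.4-fold in NFRI 3236, from 1.73 and 2.09 to -2.51 and -2.08. In S288C it fell 1.79-fold, from -1.90, -1.95 and -1.93 to -2.01, -3.56 and -2.73 (difference -3.37, SE 0.47, adjusted p 0.00102). *MEP1*, another ammonium permease, fell 5.37-fold in NFRI 3236 and stayed above S288C at both temperatures, by 4.39 at 30°C and 2.02 at 39°C. *DAL1*, allantoinase, rose 2.48-fold in S288C and fell 2.73-fold in NFRI 3236. *PUT2*, of proline use, rose 3.55-fold in S288C and was not called in NFRI 3236 (1.17-fold, adjusted p 0.447). The other called member was *DUR3*, a urea transporter.

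The low oxygen genes split by member. Of 28 tested, 5 had a lower and 5 a higher response in NFRI 3236 (median difference -0.26). *TIR4* (YOR009W), a cell wall mannoprotein, stood at 3.63 and 3.37 in NFRI 3236 at 30°C and at -3.04 and -1.27 at 39°C, while the 6 S288C arrays lay between -2.57 and -1.40. It fell 50.4-fold in NFRI 3236, was not called in S288C (adjusted p 0.324) and had a difference of -5.19 (SE 0.60, adjusted p 0.000215). *DAN1* (YJR150C), of the same class, fell 58.5-fold in NFRI 3236 and 2.36-fold in S288C (difference -4.63, SE 0.62, adjusted p 0.000817), and 1 of its 2 NFRI 3236 arrays at 39°C was below background. In NFRI 3155 both fell, with heat responses of -5.64 for *TIR4* and -5.45 for *DAN1*.

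*TIR1* and *TIR3*, mannoproteins of the same class, had higher responses in NFRI 3236. *TIR1* fell 2.66-fold in NFRI 3236 and 8.15-fold in S288C, and *TIR3* fell 3.26-fold and 9.80-fold, and both were higher in NFRI 3236 at 30°C, by 1.72 and 1.56, and at 39°C, by 3.33 and 3.15. Outside that class, the low oxygen list held *YHB1* with a higher and *CYC7* with a lower response. *YHB1* (YGR234W), a flavohaemoglobin that removes nitric oxide, stood at 4.44, 4.35 and 4.30 in S288C at 30°C and 0.53, 0.48 and 0.35 at 39°C, and on the 4 NFRI 3236 arrays between -0.06 and 1.06. It fell 15.0-fold in S288C and was not called in NFRI 3236 (adjusted p 0.057), a difference of 3.31 (SE 0.30, adjusted p 4.89e-05). *CYC7* (YEL039C), the second form of cytochrome c, rose 19.0-fold in S288C from -1.38, -1.12 and -1.27 to 2.90, 3.08 and 3.01, and stood between 0.42 and 1.23 on the NFRI 3236 arrays (difference -3.86, SE 0.43, adjusted p 0.000175).

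Of 22 tricarboxylic acid cycle genes, 6 had a lower response in NFRI 3236 and 0 a higher one (median difference -0.54), and 5 of the 6 rose in S288C and were not called in NFRI 3236. *CIT1*, the mitochondrial citrate synthase, rose 3.82-fold in S288C, and *PYC1*, pyruvate carboxylase, rose 4.85-fold. *CIT2* (YCR005C), the peroxisomal citrate synthase, moved oppositely. It fell 4.64-fold in NFRI 3236 from 2.18 and 2.14 to 0.06 and -0.17, and rose 1.69-fold in S288C from 1.13, 0.99 and 0.95 to 2.01, 1.65 and 1.68 (difference -2.97, SE 0.26, adjusted p 4.89e-05).

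*ALD4* (YOR374W), the mitochondrial aldehyde dehydrogenase, stood at 3.72 and 3.69 in NFRI 3236 at 30°C and 1.88 and 1.79 at 39°C, and in S288C at 1.44, 1.04 and 1.46 and then 2.96, 2.51 and 2.51. It rose 2.54-fold in S288C and fell 3.65-fold in NFRI 3236 (difference -3.21, SE 0.30, adjusted p 4.89e-05). Its relative *ALD5* fell 5.91-fold in S288C only, with the NFRI 3236 arrays between 1.17 and 1.71 (difference 2.54, SE 0.39, adjusted p 0.00171). *TDH1*, a glyceraldehyde-3-phosphate dehydrogenase, rose 3.50-fold in S288C and had a value of 0.572-fold in NFRI 3236 that was not called (adjusted p 0.0744). *GPD1*, which leads to glycerol, rose 2.14-fold in S288C and fell 2.06-fold in NFRI 3236.

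Of 40 respiratory chain and ATP synthase genes, 4 were lower and 0 higher (median difference -0.09), among them *CYC7* and *CYC1*, the main cytochrome c, which rose 1.51-fold in S288C and fell 1.73-fold in NFRI 3236. Of 24 ergosterol synthesis genes, 4 were lower and 0 higher (median difference -0.26). *ERG20*, farnesyl pyrophosphate synthetase, rose 1.59-fold in S288C and fell 1.60-fold in NFRI 3236, and *ERG9*, squalene synthase, fell 1.97-fold in NFRI 3236 and was not called in S288C. *OLE1*, the fatty acid desaturase that acts in membrane fluidity, fell 2.72-fold and 10.3-fold (difference 1.92, SE 0.56, adjusted p 0.0471), and this call was lost when any 1 of 7 arrays was left out, the S288C arrays at 30°C and all 4 of NFRI 3236.

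Genes for cytosolic ribosomal proteins fell in both strains and fell further in S288C. Of 127 tested, 41 had a higher response in NFRI 3236 and 0 a lower one, the median difference was 1.02, and 124 of the 127 differences were above 0. Falls were called for 124 genes in NFRI 3236 and 125 in S288C, with a median heat response of -1.67 and -2.67, and of -1.52 in NFRI 3155. All 41 called genes fell in both strains. At 30°C 0 of the 127 were called higher in NFRI 3236 and 2 lower, whereas at 39°C 70 were called higher and 0 lower.

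*RPS9B* (YBR189W), of the small subunit, stood at 5.72 and 5.08 in NFRI 3236 at 30°C and 3.71 and 4.07 at 39°C, and in S288C at 6.06, 5.96 and 5.68 and then 2.02, 2.72 and 2.45. It fell 2.84-fold and 11.3-fold (difference 2.00, SE 0.36, adjusted p 0.00527). *RPL9A* fell 4.63-fold and 18.2-fold, and *RPS22A* fell 3.60-fold and 13.3-fold. The count of 41 rested on single arrays: it was 3 without the second NFRI 3236 array at 30°C and 65 without the first, and the median difference of the list was 0.71 and 1.45 in these cases. Many ribosomal proteins have a near-identical second gene, and probe sets of a pair may share signal.

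Few calls were made among the genes that assemble ribosomes. Of 83 ribosome biogenesis genes, 3 had a higher response in NFRI 3236 and 0 a lower one, and the median difference was 0.00, with medians of -0.86 in NFRI 3236 and -0.72 in S288C. No gene was called among 20 of RNA polymerase I and III, 20 aminoacyl-tRNA synthetase genes or 34 proteasome genes, whose median differences were -0.04, -0.40 and -0.27. The proteasome genes rose in 21 cases in NFRI 3236 and in 29 in S288C. Of 66 mitochondrial ribosomal protein genes 4 were higher and 1 lower, with a median difference of 0.39.

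Vitamin, sulfur and amino acid genes held calls in both directions. Over all genes tested 4.3% were called higher and 5.82% lower, and the amino acid list lay near these shares, with 4.41% and 7.35%. The shares were 13.6% and 9.09% for the vitamin list and 9.68% and 6.45% for the sulfur list, each from few genes. Of 22 thiamine and vitamin B6 genes, the biotin genes listed with them included, 3 were higher and 2 lower (median difference -0.04). *BIO4* and *BIO5*, of biotin synthesis and uptake, fell 2.03-fold and 3.26-fold in S288C, *THI20*, of thiamine synthesis, rose 3.37-fold and *SNZ1*, of vitamin B6 synthesis, rose 2.05-fold there, and none of these was called in NFRI 3236. Of 31 sulfate and methionine genes 3 were higher and 2 lower (median difference 0.14). *MET3*, ATP sulfurylase, fell 2.42-fold in NFRI 3236 and was above S288C by 5.10 at 30°C and 3.62 at 39°C. *MET16*, of the same route, rose 2.22-fold in S288C, where *MMP1*, a permease for S-methylmethionine, fell 6.93-fold. Of 68 amino acid synthesis genes 3 were higher and 5 lower (median difference -0.26), with *LEU9*, of leucine synthesis, falling 3.75-fold in NFRI 3236 and 11.3-fold in S288C, and *ILV5*, of valine and isoleucine synthesis, falling 2.87-fold in S288C.

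Cell wall, membrane and related lists held small numbers of calls. Their shares in a direction ran from 0% to 13.3%, against 4.3% higher and 5.82% lower over all genes tested. Of 30 cell wall integrity genes 1 was higher and 4 lower (median difference -0.05): the sensor gene *WSC2* fell 4.31-fold in S288C, *PRM10* rose 2.88-fold there and *CRG1* rose 29.6-fold in S288C against 9.05-fold in NFRI 3236. Of 28 peroxisome genes 3 were higher and 1 lower (median difference 0.36), with *PEX2* and *PEX11*, of peroxisome assembly and division, falling 2.19-fold and 2.66-fold in S288C. Of 24 phosphate genes 2 were higher and 0 lower (median difference 0.46), *PHO11* and the acid phosphatase gene *PHO5*, which fell 2.63-fold in NFRI 3236 and 6.66-fold in S288C. Of 15 fatty acid genes 2 were higher, *OLE1* and the acyl-CoA synthetase gene *FAA4*, and 1 was lower, *ACB1*, for an acyl-CoA binding protein. Of 18 genes of folding in the endoplasmic reticulum 0 were higher and 2 lower (median difference -0.64), *EUG1*, which rose 2.57-fold in S288C, and the chaperone gene *LHS1*, which rose 4.04-fold in S288C against 1.86-fold in NFRI 3236.

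Single members of further lists were called. Genes that fell in S288C and were not called in NFRI 3236 were *DBP8* and *BUD21* of ribosome assembly (2.03-fold and 1.61-fold), *TIM23* of mitochondrial protein import (2.23-fold), *MRPL20* of the mitochondrial ribosome (1.49-fold), *ATG12* of autophagy (1.91-fold), *CTR2*, a vacuolar copper transporter (2.72-fold), *MCM3* of the replicative helicase (2.59-fold) and *FIG2*, a cell wall adhesin (3.34-fold). Genes that rose in S288C and were not called in NFRI 3236 were *SSC1*, the mitochondrial Hsp70 (2.74-fold), *RSM23* of the mitochondrial ribosome (1.88-fold), *TIF4632*, a translation initiation factor (2.52-fold), *TIS11*, which acts in mRNA decay when iron is short (8.23-fold), and *SPO20* of sporulation (at least 2.89-fold). *POL1*, a DNA polymerase, and the histone gene *HTB2* fell in both strains, 3.58-fold and 6.02-fold in NFRI 3236 against 1.84-fold and 2.96-fold in S288C. *GSY1*, a glycogen synthase, fell 2.91-fold in NFRI 3236 only, and *ATG31* of autophagy rose 2.06-fold there against 4.48-fold in S288C. Many of these calls lay near the threshold. *BUD21* and *ATG31* lost the call whichever 1 of the 10 arrays was left out. *POL1* lost it for 9 of them, *CTR2* and *MRPL20* for 8, and *MCM3*, *TIM23* and *HTB2* for 7, whereas *TIF4632* kept it for all.

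**Figure D4:**
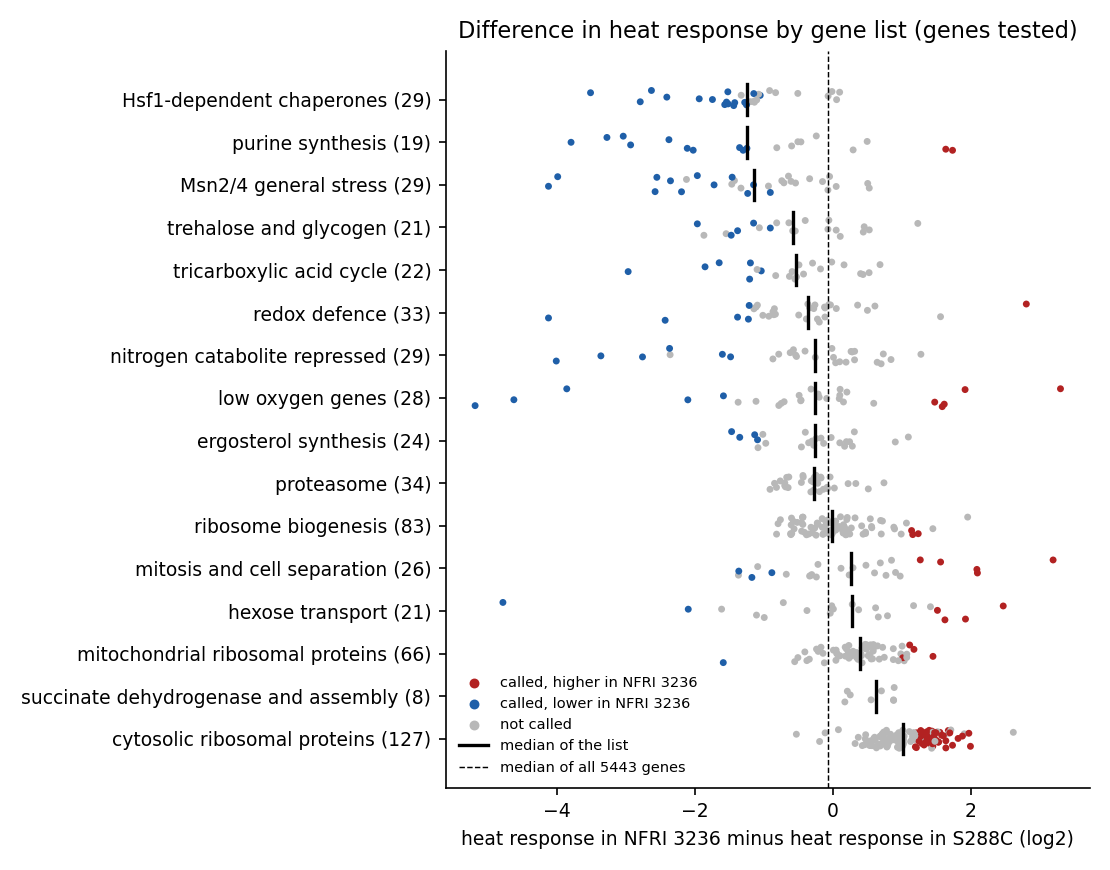
Heat response in NFRI 3236 minus heat response in S288C (x axis, log2 scale) for the tested genes of 16 lists, with 1 point per gene, the list's median as a thick line and the median of all genes, -0.07, as a dashed line. The medians of the chaperone, purine and general stress lists lie at -1.25, -1.25 and -1.15 and that of the cytosolic ribosomal proteins at 1.02, and the proteasome genes hold no coloured point.

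Genes for separating mother and daughter cells fell in S288C, and 4 of the 5 with a higher response were not called in NFRI 3236. Of 26 mitosis and cell separation genes, 5 had a higher response in NFRI 3236 (*DSE2*, *CTS1*, *SCW11*, *EGT2* and *DSE1*) and 3 a lower one (*CDC5*, *MYO1* and *IQG1*), with a median difference of 0.27. *DSE2* (YHR143W), a daughter cell wall protein, stood at 4.98, 4.05 and 4.14 in S288C at 30°C and 1.01, 1.41 and 1.46 at 39°C, while the 4 NFRI 3236 arrays lay between 1.55 and 1.85. *DSE2* fell 8.56-fold in S288C (difference 3.20, SE 0.58, adjusted p 0.00527). *YNL046W*, of unknown function and outside the list, fell 5.55-fold in S288C and was not called in NFRI 3236. *CTS1*, the chitinase that frees the daughter, fell 5.56-fold in S288C, the glucanase gene *SCW11* fell 4.07-fold and *EGT2* fell 2.73-fold. In RNA of whole cultures, fewer cells at a given stage and less RNA per cell cannot be told apart.

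The 3 members with a lower response act in mitosis and cytokinesis, and all 3 calls were lost without the second NFRI 3236 array at 30°C. The count was 1 without the first or the third S288C array at 30°C or either NFRI 3236 array at 39°C. *CDC5*, the polo kinase, fell 3.85-fold in NFRI 3236 and 2.09-fold in S288C, and *MYO1*, the myosin of the contractile ring, fell 2.50-fold in NFRI 3236 and was not called in S288C. Of 21 genes of hexose transport, 4 were higher and 2 lower, but *HXT8* among the higher was below background on all 10 arrays and *HXT14* among the lower on all but 1. *HXT4*, a high-affinity transporter, fell 5.11-fold and 19.4-fold and was higher in NFRI 3236 at both temperatures, by 1.96 and 3.89. *HXT7* fell 2.86-fold in S288C and stood between 0.37 and 0.47 on the 4 NFRI 3236 arrays. Hexose transporter genes are closely related, and their probe sets may share signal. *PHO11*, a secreted acid phosphatase, fell 6.08-fold in S288C only and had a strain difference (NFRI 3236 minus S288C) of -5.23 at 30°C and -2.78 at 39°C.

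The largest difference with a higher response among measured genes was that of *YBL044W*, an open reading frame of unknown function. It stood at -3.57 and -3.56 in NFRI 3236 at 30°C and at -2.32 and -1.81 at 39°C, and in S288C at -3.57, -3.48 and -3.32 and then at -7.03, -4.45 and -8.07. The strains overlapped at 30°C and the S288C arrays at 39°C were all below background, so that S288C fell at least 2.11-fold (fitted difference 4.56, SE 1.02, adjusted p 0.0157). *YHR022C-A* also fell below background in S288C, at least 5.24-fold, and 1 of its 2 NFRI 3236 arrays at 30°C was below background too.

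*COS12*, of a family of membrane proteins whose genes lie near chromosome ends, stood between 0.22 and 0.49 on the 4 NFRI 3236 arrays and fell in S288C from -1.49, -1.78 and -1.99 to -4.39, -4.45 and -4.26. Of these last arrays 1 was above background, and COS genes are similar enough for their probe sets to share signal. *GAS2*, a cell wall enzyme of sporulation, had a difference of 3.23 (SE 0.87, adjusted p 0.0343), with 1 NFRI 3236 array at 30°C and 1 S288C array at 39°C below background. *VBA2*, a vacuolar transporter of basic amino acids, moved oppositely, with a rise of 1.93-fold in NFRI 3236 and a fall of 2.97-fold in S288C.

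Among genes with a lower response, *SMA1*, of spore membrane assembly, rose at least 5.52-fold in S288C from below background and was not called in NFRI 3236 (fitted difference -4.43, SE 0.30, adjusted p 4.57e-06). *BNA2*, the first enzyme of NAD synthesis from tryptophan, rose at least 10.6-fold in S288C, also from below background. *ICY1*, like *DAN1* and *GAP1*, had a larger fall in NFRI 3236. *ICY1* fell 8.49-fold there from 2.56 and 2.31 to -0.56 and -0.74. In S288C it fell 1.90-fold from 3.32, 3.05 and 3.18 to 2.60, 2.25 and 1.92 (difference -2.16, SE 0.30, adjusted p 0.00102). The reverse case was *HMS2*, which resembles heat shock factors in sequence and fell 3.41-fold in NFRI 3236 and 14-fold in S288C (difference 2.04, SE 0.27, adjusted p 0.000718).

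The strains moved in opposite directions, each past its own test, for 45 genes (0.827% of those tested). NFRI 3236 rose and S288C fell for 16, and NFRI 3236 fell and S288C rose for 29. Beside *APT2*, *MTD1* and *ALD4*, the largest of these differences were found for *YBR200W-A*, *RFU1* and *QDR2*. *QDR2* (YIL121W), a drug and ion exporter of the plasma membrane, stood at -1.70 and -1.36 in NFRI 3236 at 30°C and -0.35 and -0.62 at 39°C, and in S288C at 2.25, 1.84 and 1.94 and then at -0.44, -0.34 and -0.01. At 39°C the arrays of both strains overlapped, and at 30°C they lay far apart. It rose 2.06-fold in NFRI 3236, fell 4.83-fold in S288C and rose 1.95-fold in NFRI 3155 (difference 3.32, SE 0.33, adjusted p 6.18e-05).

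*RFU1* (YLR073C), an inhibitor of ubiquitin release, stood at -3.43 and -3.25 in NFRI 3236 at 30°C and at -2.59 and -0.26 at 39°C, and in S288C at 0.91, 0.85 and 0.45 and then at -1.44, -0.74 and -1.06. The NFRI 3236 rise of 3.77-fold thus rested mostly on its second array at 39°C, and S288C fell 3.51-fold (difference 3.73, SE 0.67, adjusted p 0.00527). *YBR200W-A* was below background on the S288C arrays at 30°C and the NFRI 3236 arrays at 39°C and rose at least 2.77-fold in S288C (fitted difference -4.20, SE 0.55, adjusted p 0.000718). *MAL11*, the maltose permease, was below background in NFRI 3236 at 30°C, rose there at least 2.19-fold and fell 2.80-fold in S288C. *ARN2*, a siderophore transporter, rose 2.20-fold and fell 2.46-fold. *HXT8* was also called in opposite directions but was below background on all 10 arrays. *UIP3*, counted as a fall in NFRI 3236 and a rise in S288C, was below background on every NFRI 3236 array.

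NFRI 3236 rose and S288C was not called for 35 genes. *ACS1*, an acetyl-CoA synthetase, rose 2.76-fold in NFRI 3236 from -0.51 and -1.07 to 0.67 and 0.68, while the 6 S288C arrays lay between 0.02 and 0.43 (difference 1.44, SE 0.29, adjusted p 0.0104). *HAP5*, a subunit of the activator of respiratory genes, rose 2.48-fold, *OXA1*, the insertase of the inner mitochondrial membrane, rose 2.40-fold and *MRPL4*, of the mitochondrial ribosome, rose 2.20-fold, and none of these was called in S288C. The phosphatase gene *PPG1* and *FMP52*, with rises of 2.47-fold and 2.48-fold, had the same pattern. *OYE3*, an NADPH dehydrogenase, was below background in NFRI 3236 at 30°C and rose at least 1.54-fold, while S288C held -2.51 to -1.95, and its call (adjusted p 0.0238) was lost without the first array of S288C at 30°C or of NFRI 3236 at either temperature. Among the 9 genes that rose in both strains with the larger rise in NFRI 3236 were *YOR338W*, with fitted rises of 21.6-fold and 4.42-fold, and *SUL1*, a sulfate permease, which rose 7.24-fold in NFRI 3236 and was below background in S288C at 30°C, where it rose at least 1.51-fold. For both genes 1 of the 2 NFRI 3236 arrays at 30°C was below background. *YDL057W* and *YPL278C*, measured on all arrays, rose 6.29-fold and 3.97-fold in NFRI 3236 against 1.88-fold and 1.38-fold in S288C.

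Since the difference in heat response equals the strain difference at 39°C minus that at 30°C, the called genes were also placed by temperature. Over all genes tested, 837 (15.4%) were called higher and 750 (13.8%) lower in NFRI 3236 at 30°C, and 714 (13.1%) higher and 812 (14.9%) lower at 39°C. Of the 317 genes with a lower response, 174 were called higher in NFRI 3236 at 30°C and 180 lower at 39°C. They divided into 110 that were higher at 30°C and not called at 39°C (such as *HSP42*, *RTC3*, *MEP2* and *TIR4*), 117 that were lower at 39°C only (such as *HXT5* and *FMP16*) and 47 that were higher at 30°C and lower at 39°C (such as *CTT1*, *ADE1* and *MTD1*). Of the 234 with a higher response, 78 were lower in NFRI 3236 at 30°C only (*APT2*, *YHB1*, *DSE2*), 111 were higher at 39°C only (*RPS9B*, *OLE1*) and 16 were lower at 30°C and higher at 39°C. These shares follow in part from the choice of the genes, which uses the same arrays.

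**Figure D5:**
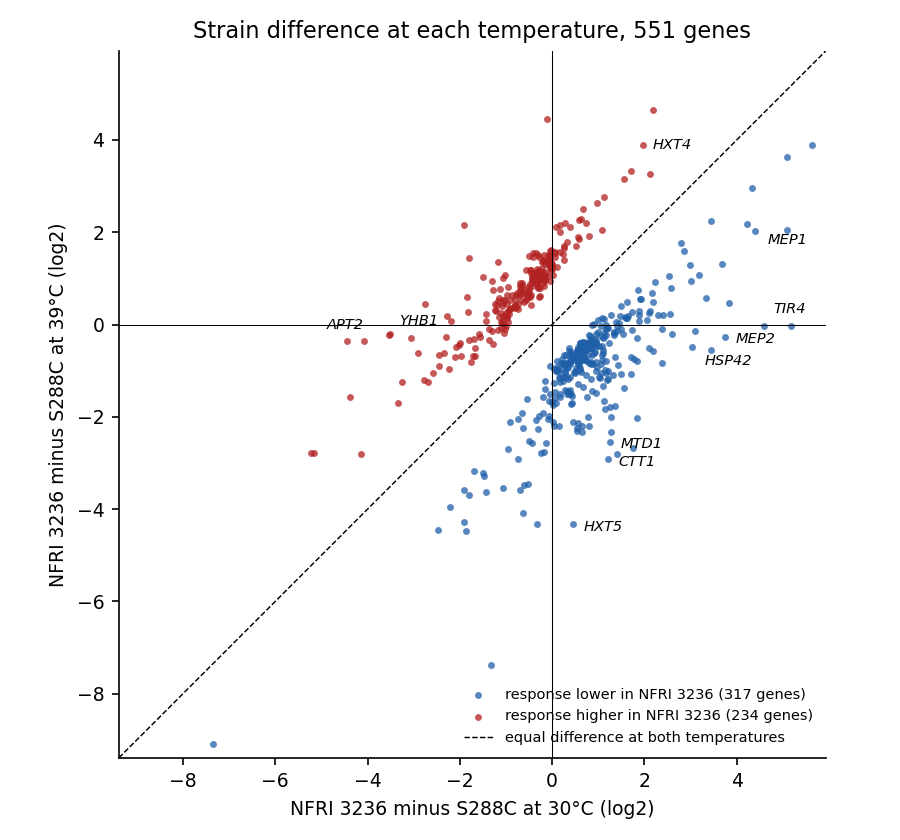
Level in NFRI 3236 minus level in S288C at 30°C (x axis) and at 39°C (y axis), log2 scale, for the 551 called genes, with 1 point per gene. *TIR4*, *MEP2* and *HSP42* differ between strains at 30°C, *HXT5* at 39°C, and *MTD1* and *CTT1* in opposite directions at the 2 temperatures.

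The study's candidate genes *YER034W*, *FMP21* and *PRM5*, and other genes it names, were read in the same fit. The study chose these candidates from these same arrays, in part by comparing fold changes between strains. Their values here are thus no independent test of that choice. *YER034W*, of unknown function, rose 3.10-fold in NFRI 3236, from -3.17 and -3.05 to -1.75 and -1.21. In S288C it rose 1.60-fold, from -1.39, -1.35 and -1.30 to -0.50, -0.75 and -0.75, and lay above NFRI 3236 at both temperatures. Its difference of 0.95 (SE 0.28) was called at an adjusted p of 0.0474, and it lost the call when any 1 of 8 arrays was left out, all but the first S288C and the first NFRI 3236 array at 39°C. *SDH8* (YBR269C, also named *FMP21*), an assembly factor of succinate dehydrogenase, rose 3.68-fold from 0.17 and -0.17 to 1.62 and 2.14 in NFRI 3236, and 2.25-fold from 1.24, 0.98 and 1.04 to 2.36, 2.29 and 2.14 in S288C. Its difference of 0.71 (SE 0.29) was not called (adjusted p 0.131), which with so few arrays does not show equal responses. By real-time RT-PCR, another measure of mRNA, the study reported that *FMP21* induction increased significantly with the thermotolerance of its strains. It found no such relationship for *YER034W* and *PRM5*. Its work on *FMP21* also covers further strains, a deletion and overexpression, none of which was read here. *PRM5*, a cell wall stress gene, had fitted rises of 48.2-fold and 26.8-fold, with 1 of its 2 NFRI 3236 arrays at 30°C below background, and a difference of 0.85 (SE 0.49, adjusted p 0.285). *END3*, *RHO2* and *MKT1*, which the study cites from earlier mapping of growth at high temperature, had differences of 0.07, -0.53 and -1.03. They were not called (adjusted p 0.951, 0.312 and 0.135). All 8 genes for succinate dehydrogenase and its assembly had differences above 0 (median 0.63), and 0 were called. *ACT1* (actin) and *ALG9* are reference genes of the study, and *TDH3* gave the promoter for its overexpression. Their differences of -0.32, 0.34 and -0.05 were not called, but their levels did not all hold with heat. *ALG9* fell 2.04-fold in NFRI 3236 and 2.58-fold in S288C, and *TDH3* fell 2.02-fold and 1.94-fold, each past its own test. *ACT1* fell 1.93-fold in NFRI 3236 and was not called in S288C (adjusted p 0.0733).

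Some of the called genes were hardly measured in 1 strain. Of the 551, 527 were above background in every array of at least 1 group of each strain, and 491 on all 10 arrays. On all 4 NFRI 3236 arrays 14 called genes were below background, 12 with a lower and 2 with a higher response, and for these no fold is given in NFRI 3236. They include *SPG4*, *NFT1*, *YLR012C* (at least 1.69-fold up in S288C), *POT1* (the thiolase of fatty acid oxidation, at least 1.80-fold up in S288C), *LOH1* and the sporulation gene *SPR28* (at least 2.70-fold and 2.31-fold up in S288C), and *UIP3*, which stood between 1.29 and 2.80 in S288C and between -6.74 and -5.86 in NFRI 3236. Among *S. pombe* probe sets, which should not bind *S. cerevisiae* RNA, the same test called 15 of 1307 (1.15%), of which 13 were below background in all groups, and their median difference was -0.57.

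The mating type of the strains is not given, and markers of mating type were read for that reason. Of 8 a-specific genes, 5 were above background on both NFRI 3236 arrays at 30°C and 6 at 39°C, and 7 and 8 on all 3 S288C arrays. Of 4 alpha-specific genes the counts were 2, 2, 4 and 3. The summed level of the a-specific genes on the linear scale was 0.472 to 0.783 in NFRI 3236 and 0.701 to 1.56 in S288C. That of the alpha-specific genes was 0.675 to 0.857 and 0.578 to 1.12. Some markers of each type were thus above background in each strain, but the pheromone and receptor genes were low. The share of genes with a lower mean level ran from 2.04% (*MF(ALPHA)1* in NFRI 3236) to 11.4% (*STE3* in S288C). The mating type itself was not tested. *MFA2* rose 3.57-fold in S288C and fell 2.20-fold in NFRI 3236 (difference -2.97, SE 0.39, adjusted p 0.000718), and *STE3* had a lower and *SAG1* a higher response in NFRI 3236. Of 18 haploid-specific genes 2 (*NEJ1*, *FIG1*) were called higher and 0 lower, though 13 had differences below 0 (median -0.45). *FIG1* was below background on all NFRI 3236 arrays and above it on 1 S288C array at each temperature. Its call was lost when any 1 of 8 arrays was left out.

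The NFRI 3155 arrays entered the comparison through the shared estimate of the spread, the filter on low signals and the choice of the brightest probe set. With only the 10 arrays of the other strains in the fit, 492 genes were called. For the 551 called genes its heat response was nearer to that of NFRI 3236 for 392 (71.1%) and nearer to that of S288C for 159 (28.9%). For the genes that were not called, it was nearer to NFRI 3236 for 58.6%. By direction the shares were 75.2% of the genes with a higher and 68.1% of those with a lower response in NFRI 3236. Chaperones and purine genes lay on the side of NFRI 3236 by their medians (0.77 and -1.68), and the general stress genes on the side of S288C (3.78).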

How the data were processed

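The authors scanned 1 Affymetrix array per sample and deposited 1 linear signal intensity per probe set, made with GCOS at its default settings. Signals below 1 were set to 1, taken to log2 and shifted by the array's 75th percentile, as the methods describe. Of 5449 named *S. cerevisiae* genes, 5443 passed the filter, which asks for a level over percentile 20 on each array of some group. A gene with several probe sets was read from the brightest. limma 3.58.1 in R 4.3.3 fitted 14 arrays with 6 group means (8 residual and 5.10 prior degrees of freedom, median SE of a heat response difference 0.35). Tests were two-sided, with Benjamini-Hochberg adjustment over 5443 genes. The methods speak of independently grown cells in duplicate, and the third S288C arrays were kept. Precision is limited by how few arrays there are. The test was tried on simulated data first. The members and the 43 gene lists were chosen with earlier results of these data known.

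Genes named are the 14 largest differences in each direction (above background in every array of some group of each strain), the 3 lowest adjusted p per pattern and up to 2 per list and direction. Also named are the 6 largest opposite movements, up to 6 genes below background in 1 strain, and the study's candidate genes with other genes it names. Further members of the lists (*SSA1*, *HSP78*, *HSP104*, *HSP26*, *SSA4*, *HSP60*, *YDJ1*, *ADE2*, *ADE4*, *MEP1*, *DAL1*, *DUR3*, *TIR1*, *TIR3*, *CIT1*, *CTS1*, *EGT2*, *DSE1*, *HXT7*, *CDC5* and others in the text), *GCV1* and *GPD1* were named after their values were seen. Gene names follow a current RefSeq gene table. No coordinates or sequences are given, and promoter motifs were not analysed here.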

Additional observations from a re-analysis of the deposited data

Results flagged for a closer look

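By the interaction term, the heat response was higher in NFRI 3236 for 234 genes and lower for 317, and 45 genes were called in opposite directions in the 2 strains. The opposite movements of largest size were *YBR200W-A* (-4.20), *APT2* (4.07), *MTD1* (-3.80), *RFU1* (3.73), *QDR2* (3.32) and *ALD4* (-3.21), as heat response differences on the log2 scale. Of these, *YBR200W-A* was below background in 1 group of each strain, and the rise of *RFU1* rested mostly on the second NFRI 3236 array at 39°C. Outside the named genes, 14 of 186 unnamed probe sets that were above background on all arrays (7.53%) had a called difference, 5 higher and 9 lower in NFRI 3236. What these probe sets measure was not tested.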

How the results depend on the processing

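The limits lie in the scaling and in the number of NFRI 3236 arrays. Without the percentile shift the calls fell to 23 higher and 38 lower, 56 of them among the 551, with 12 in opposite directions, 11 in the same direction, 27 for S288C alone and 11 for NFRI 3236 alone, and the median difference of all genes moved from -0.07 to 0.17. Quantile normalization called 622 genes, 44.5% of them lower, against 57.5%. With only the first 2 S288C arrays of each temperature 69 were higher and 185 lower (72.8% lower), 62 in the same direction, 112 for S288C alone and 49 for NFRI 3236 alone. An ordinary linear model called 153 higher genes and 155 for S288C alone. With single arrays left out, the higher calls ranged from 68 to 234 and the lower from 163 to 353. The patterns ranged from 26 to 50 (opposite), 52 to 146 (same direction), 105 to 256 (S288C alone) and 43 to 138 (NFRI 3236 alone), and without the second NFRI 3236 array at 30°C 70.6% of calls were lower.

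Replicate numbers did not pair the arrays: deviations from the group means correlated between -0.079 and 0.0917 for same-numbered arrays of different groups (13 pairs). With replicate number as a block 153 genes were higher and 238 lower, 383 of these 391 among the 551. Array quality weights, no filter, the 10 arrays alone, 16 added to each signal, averaging probe sets, genes above background on all 10 arrays and a minimum difference of 1 left both directions within 1.5 times. With the methods' t-test at its nominal threshold, 705 genes rose and 897 fell in NFRI 3236, with 0 left after Benjamini-Hochberg adjustment, and 1423 rose and 1552 fell in S288C, with 2443 left.

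Among list counts, the 41 higher ribosomal protein genes became 0 without the shift, 62 with quantile normalization, 65 with 16 added, 26 with the block and 9 with 2 S288C arrays. Without the shift, 3 chaperone, 2 general stress and 4 purine genes stayed lower. With quantile normalization the median differences of the chaperone and purine lists were -0.74 and -0.81. With single arrays left out, the lower counts ranged from 3 to 6 for the tricarboxylic acid cycle and from 3 to 10 for redox defence, and the higher counts from 2 to 5 for low oxygen genes, 3 to 6 for cell separation and 1 to 4 for hexose transport. Of the 119 called genes among those named by rule, 64 lost the call when at least 1 array was left out. Beside genes whose limit is given above, *CTF4* and *YLR012C* lost it for 9 of the 10 arrays. *PMI40*, *ERG9*, *MET3*, *ACB1*, *SAG1*, *LOH1* and *NFT1* lost it for 8. The only reversal among named genes was *FIG1* with 16 added to each signal (a difference of -0.042, adjusted p 0.95), a gene below background in NFRI 3236.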
